A study of Mus musculus with 6 samples.

Results

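The Notch genes described here are 3 receptors (Notch1, Notch2 and Notch3), 3 ligands (Jag1, Jag2 and Dll1) and 4 target genes (Hes1, Hey1, Hey2 and Heyl), chosen by name from the 49548 genes of the table. All 10 were listed there. They were followed in synovial fibroblasts (SFs), the connective tissue cells of the joint lining, from the ankle joints of 8-week-old hTNFtg mice on a CBA C57BL/6J background. Every library carried the human TNF transgene that gives these mice inflammatory arthritis, so no wild-type level was part of the comparison. The groups were 3 libraries without treatment and 3 libraries of SFs given 500 μM amisulpride, an antipsychotic dopamine and serotonin receptor blocker, for 48 hours. The label of the controls is no treatment, whereas the methods of the study speak of vehicle. The cells were cultured after depletion of CD45+ cells at passage 1, and RNA was sequenced from the 3′ end of transcripts (QuantSeq) on an Ion Proton instrument.

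Notch receptors are membrane proteins that are activated by ligands on a neighbouring cell. Binding of a Jagged or Delta-like ligand exposes the receptor to the protease ADAM10 and then to γ-secretase, which frees the intracellular domain. That domain enters the nucleus, joins the DNA-binding protein RBPJ and a Mastermind co-activator, and switches on Hes and Hey genes, which encode transcriptional repressors. In the synovium, Jagged ligand on endothelial cells and NOTCH3 on neighbouring stromal cells are known to shape the perivascular sublining fibroblasts.

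Values are normalised counts, which the authors made from the reads of each gene with a scaling factor for each library and then rounded. The libraries held approximately 2.52 to 4.71 M reads, with amisulpride replicate 3 the shallowest. That library also lay apart on the leading principal component (73.9 against -38.2 to 10.4 for the others). It held the highest of the 6 values for 24.8% and the lowest for 24% of the 12614 genes tested. A gene was tested where at least 3 libraries reached 10 normalised counts, and 5 of the 10 Notch genes met this. The libraries are 3 biological replicates per group in the methods of the study. In such bulk samples fewer cells of a type and less RNA per cell cannot be told apart.

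Amisulpride-treated SFs had 2.05-fold more Jag1 transcript than untreated SFs, while Hes1, Notch1, Notch2 and Notch3 did not pass the test in either direction. Jag2, Dll1, Hey2 and Heyl lay at or under the detection floor in every library, and Hey1 was just above it in most. The study called a gene changed when its log2 fold change was 1 or more in either direction and its unadjusted p-value was under 0.05. The study used DESeq results, whereas the same cut-offs were applied here to limma results. By these study thresholds 1 of the 5 tested Notch genes was called, against 5.7% of all genes tested (2.69% higher and 3.01% lower). None had a limma adjusted p-value under 0.05, against 0.285% of all genes, and 1 of the 5 had an unadjusted p-value under 0.05, against 10.9% of all genes. The median log2 fold change of the 5 genes was -0.0775, and that of all genes tested was 0.00155.

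Of the 10 Notch genes 7 had a promoter window, and among these only Hey2 had one that held the sequence read by RBPJ. The Hey2 promoter is shown with that of Jag1, the gene that rose at the study thresholds. Both are RefSeq windows in GRCm38.p6, the build that is also called mm10, from 250 bases before to 50 bases after the start site. Jag1 lies at chr2:137116471-137116770 on the minus strand and Hey2 at chr10:30842734-30843033 on the minus strand, both printed 5′ to 3′ along the gene. Capitals mark the RBPJ heptamer GTGGGAA or its reverse complement TTCCCAC.
Jag1: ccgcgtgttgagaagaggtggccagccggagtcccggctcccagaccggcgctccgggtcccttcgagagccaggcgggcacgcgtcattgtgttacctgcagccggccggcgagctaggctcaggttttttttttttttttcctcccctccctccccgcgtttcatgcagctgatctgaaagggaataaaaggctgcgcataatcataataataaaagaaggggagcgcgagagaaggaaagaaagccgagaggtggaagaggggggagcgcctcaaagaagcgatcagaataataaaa
Hey2: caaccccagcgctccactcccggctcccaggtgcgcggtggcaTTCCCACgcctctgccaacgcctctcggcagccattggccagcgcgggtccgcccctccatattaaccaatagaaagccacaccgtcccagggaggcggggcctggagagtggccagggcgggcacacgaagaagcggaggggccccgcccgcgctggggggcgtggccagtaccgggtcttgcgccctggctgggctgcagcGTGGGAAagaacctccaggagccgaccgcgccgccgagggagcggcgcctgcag

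RefSeq windows were matched for 7 of the 10 genes, with 8 windows in all, and Hes1, Hey1 and Heyl were not among them. The RBPJ heptamer, searched on both strands, was found in 1 of these 8 windows, against 6.39% of 32817 mouse promoter windows. In Hey2 it occurred as TTCCCAC from position -207 and as GTGGGAA from position -4 relative to the start site. The Jag1 window held neither this heptamer nor the E-box CACGTG, a palindrome bound by bHLH proteins, which 7.15% of all windows held. The N-box CACNAG, a word bound by Hes proteins, was found on either strand in 4 of the 8 windows and in 42.5% of all windows. In Notch1, 2 of its matches overlapped each other, and no match overlapped a heptamer. Among the other genes of the pathway listed for this work, 6 of 70 windows held the heptamer. These matches describe letters and carry no statement about binding.

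Jag1 (ENSMUSG00000027276, chromosome 2, 137081456 to 137116644, minus strand) encodes Jagged 1, a membrane ligand of Notch receptors. Its values were 129, 73 and 107 normalised counts in untreated replicates 1, 2 and 3 and 201, 149 and 293 in amisulpride replicates 1, 2 and 3. All treated values lay above all untreated values, as for 7.8% of all genes tested, and amisulpride replicate 3 was the highest. The means were 103 ± 28.2 and 214.3 ± 72.9 (SD, n = 3). The difference on the log2 scale was 1.03 ± 0.32 (SE), with a 95% interval of 0.33 to 1.74 and a limma adjusted p of 0.241 (unadjusted 0.00801). This corresponds to 2.05-fold, with an interval of 1.25 to 3.34, on the scale of normalised count plus 1. In approximate reads this was 328 in untreated and 499 in treated SFs, or 26.5 (exact Poisson 95% interval 23.7 to 29.5) and 50.6 (46.3 to 55.3) per M reads. These 2 intervals pool the libraries of a group and leave out the spread between replicates. Within each replicate number the treated library was higher, by 0.64, 1.02 and 1.44 on the log2 scale. The call rested on single libraries, since the log2 fold change was 0.81 when untreated replicate 2 was left out and 0.78 when amisulpride replicate 3 was, both under the study threshold, with unadjusted limma p-values of 0.0453 and 0.0245. Jag1 was higher in treated SFs in all 14 alternatives, with adjusted limma p-values from 0.0613 (with the replicate number as a block) to 0.564.

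**Figure D1:**
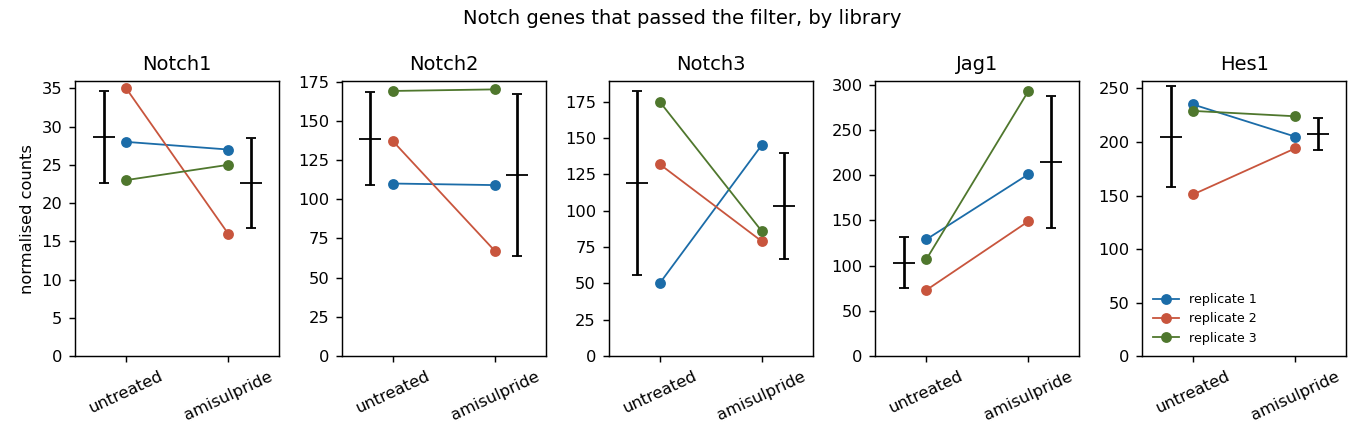
Normalised counts (y axes, from 0) of the 5 tested Notch genes in untreated and amisulpride-treated SFs. Each point is 1 library, lines join libraries of the same replicate number, and black marks give the mean ± SD over 3 libraries. For Jag1 the treated values of 149 to 293 all lie above the untreated values of 73 to 129, whereas the groups overlap for the other genes.

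The other ligands were at or under the floor of 3 reads. Jag2 (ENSMUSG00000002799, chromosome 12, 112908590 to 112929495, minus strand), the second Jagged ligand, had 0, 0 and 0 normalised counts without treatment and 0, 0 and 5 with amisulpride, where the last value corresponds to approximately 3 reads. Another annotation of the same build, GENCODE, extends Jag2 by 771 bases on its 3′ side, to 112907819. Reads from the 3′ end of transcripts may lie there, and whether any were left uncounted was not tested. Dll1 (ENSMUSG00000014773, chromosome 17, 15367354 to 15376872, minus strand), a Delta-like ligand, was at 0 in all 6 libraries. A count of 0 allows up to 3 reads, which over the approximately 12.4 M untreated reads is 0.242 per M reads and over the 9.86 M treated reads 0.304 per M reads. The two-sided exact Poisson 95% interval, as used for Jag1, reaches 0.298 and 0.374 per M reads for a count of 0. Such limits and the intervals on read numbers pool the libraries of a group. They cover counting error alone and leave out the spread between replicates. Molecular identifiers were not mentioned in the sources used here. No fold is given for either gene.

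The 3 receptors were present in every library and overlapped between the groups. Notch1 (ENSMUSG00000026923, chromosome 2, 26457903 to 26516663, minus strand), the widely expressed receptor, had 28, 35 and 23 normalised counts in the untreated SFs and 27, 16 and 25 in treated SFs. Untreated replicate 2 was the highest and amisulpride replicate 2 the lowest. Its log2 fold change was -0.34 ± 0.39 (SE), with an interval of -1.18 to 0.51 and a limma adjusted p of 0.788. Notch1 overlaps the end of the antisense transcripts Gm13568 and 0610009E02Rik, which had at most 6 normalised counts, and whether counting used strand was not stated.

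Notch2 (ENSMUSG00000027878, chromosome 3, 98013527 to 98150361, plus strand), a receptor also known for its part in bone disease, had 110, 137 and 169 normalised counts in the untreated SFs and 109, 67 and 170 in treated SFs. Replicates 1 and 3 were nearly level between the groups, and in replicate 2 the treated library was lower, with a log2 difference of -1.02. The log2 fold change was -0.34 ± 0.35 (SE), with an interval of -1.11 to 0.42 and a limma adjusted p of 0.764. Without amisulpride replicate 2 it was -0.0045. Without amisulpride replicate 3 it was -0.67, with an interval of -1.34 to -0.0022 and an unadjusted limma p of 0.0494 (adjusted p 0.393), and with weights per library -0.63 (unadjusted limma p 0.0544).

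Notch3 (ENSMUSG00000038146, chromosome 17, 32120820 to 32166880, minus strand), the receptor of mural and perivascular cells, had the largest SE of the receptors. It had 50, 132 and 175 normalised counts in the untreated SFs and 145, 79 and 86 in treated SFs. Untreated replicate 1 was the lowest and untreated replicate 3 the highest of the 6 libraries. In replicate number 1 the treated library was higher by 1.52 on the log2 scale, and in numbers 2 and 3 it was lower, with differences of -0.73 and -1.02. The log2 fold change was -0.078 ± 0.44 (SE), with an interval of -1.03 to 0.88 and a limma adjusted p of 0.964. Its sign turned without untreated replicate 2 (0.086), untreated replicate 3 (0.29), amisulpride replicate 2 (0.087) or amisulpride replicate 3 (0.027). The long noncoding RNA Gm17276 overlaps Notch3 on the opposite strand and had 0 to 16 normalised counts.

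Whether 1 receptor shifted against another was examined with ratios of the normalised count plus 1 within each library. The log2 ratio of Notch1 to Notch2 was -2.23 ± 0.51 in untreated and -2.23 ± 0.42 in treated SFs (SD, n = 3), with an exact two-sided permutation p of 1. For Notch1 to Notch3 the treated mean minus the untreated one was -0.26 (exact permutation p = 0.8), and for Notch2 to Notch3 also -0.26 (exact permutation p = 0.5). With 3 libraries in each group this test cannot go below 0.1. The intended ratios of Jag1 to Jag2, Hes1 to Hey1 and Hey1 to Heyl were not formed, because at least 1 gene of each pair was at or under the floor of 3 reads in a library.

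Hes1 (ENSMUSG00000022528, chromosome 16, 30064384 to 30067796, plus strand), the target gene most used as a readout of Notch activity and also driven by other signals, did not pass the test. Its values were 235, 151 and 229 normalised counts in the untreated SFs and 205, 194 and 224 in treated SFs, with untreated replicate 2 the lowest. The log2 fold change was 0.044 ± 0.26 (SE), with an interval of -0.53 to 0.62, or 0.693 to 1.53 on the fold scale, and a limma adjusted p of 0.966. The sign turned when untreated replicate 2 (-0.16) or amisulpride replicate 3 (-0.012) was left out.

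The Hey genes encode repressors related to Hes1 that are strongest in blood vessels and heart. Hey1 (ENSMUSG00000040289, chromosome 3, 8663359 to 8667256, minus strand) had 8, 5 and 8 normalised counts in the untreated SFs and 4, 11 and 2 in treated SFs, above the floor in 5 of the 6 libraries. Summed over libraries this was approximately 23 untreated and 13 treated reads, or 1.86 (exact Poisson 95% interval 1.18 to 2.79) and 1.32 (0.702 to 2.26) per M reads. Hey1 did not meet the filter, so its difference was not part of the main test. Hey2 (ENSMUSG00000019789, chromosome 10, 30832359 to 30842801, minus strand) had 1 normalised count in untreated replicate 1, 1 in amisulpride replicate 2 and 0 elsewhere. Heyl (ENSMUSG00000032744, chromosome 4, 123233556 to 123249875, plus strand) had 1 in untreated replicates 2 and 3 and 0 elsewhere. Hey2 and Heyl therefore stayed under the floor of 3 reads in all 6 libraries.

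The ratio of Jag1 to the other tested genes was formed from the normalised counts as they stand, after the values had been seen, and is given without a test. Every ratio has Jag1 as its numerator, so the ratios are not independent of the Jag1 difference or of each other. Jag1 stood at 0.549, 0.483 and 0.467 of the Hes1 value in untreated replicates 1, 2 and 3 and at 0.98, 0.768 and 1.31 in the treated ones. The treated ratios lay above the untreated ones for Hes1, for Notch1 (means of 9.49 and 3.78) and for Notch2 (1.93 and 0.78). For Notch3 the groups overlapped, with untreated replicate 1 at 2.58 and amisulpride replicate 1 at 1.39.

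**Figure D2:**
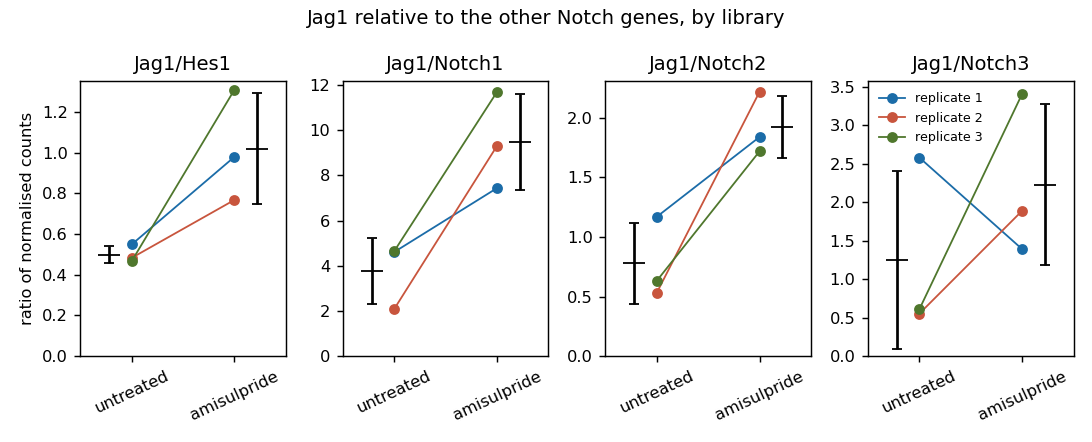
Ratio of the Jag1 value to that of Hes1, Notch1, Notch2 and Notch3 in the same library (y axes, from 0, no unit). Points are libraries, lines join the same replicate number, and black marks give the mean ± SD over 3 libraries. Treated ratios lie above untreated ones in the first 3 panels, and the last panel shows an overlap that involves replicate 1.

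The rest of the pathway was followed in 67 further genes, of which 54 were tested. At the study thresholds 0 were higher and 1 was lower, which is 1.85% of those tested against 5.7% of all genes. None had a limma adjusted p-value under 0.05, against 0.285% of all genes. An unadjusted one under 0.05 was found for 3 of the 54 genes, against 10.9% of all genes. The groups did not overlap for 9 of the 54 genes (16.7%), of which 3 were higher and 6 lower, against 16.5% of all genes (7.8% higher and 8.66% lower). The median log2 fold change was -0.11.

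The gene that fell at the study thresholds was Furin (ENSMUSG00000030530, chromosome 7, 80388585 to 80405436, minus strand), which encodes the Golgi protease that makes the first cut in Notch receptors and also cuts many other proproteins. Its values were 514, 280 and 448 normalised counts in the untreated SFs and 184, 182 and 165 in treated SFs. The treated values lay close together and under all untreated ones. The log2 fold change was -1.18 ± 0.28 (SE), with a limma adjusted p of 0.109, which became 0.0284 with the replicate number as a block. Without untreated replicate 1 it was -0.998 and fell just short of the study thresholds. The other 9 genes of receptor processing did not pass.

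Among other receptors and ligands 3 of 7 genes were tested and 0 passed. Egfl7, a secreted protein that can bind Notch and is also an endothelial gene, had 66, 84 and 78 normalised counts in the untreated SFs and 50, 59 and 25 in treated SFs (log2 fold change -0.83, unadjusted limma p 0.0386). Without amisulpride replicate 3 it was -0.47. Dlk1, a noncanonical ligand, had a log2 fold change of -0.86 ± 0.73 (SE), with 4 normalised counts in amisulpride replicate 3 and 29 to 55 elsewhere. Dll4 was at 0 in all 6 libraries, and Notch4 and Dll3 were not tested.

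Enzymes that attach sugars to the receptor passed in 0 of 3 tested genes. Poglut1, an O-glucosyltransferase, had a log2 fold change of -0.055 ± 0.25 (SE) and Pofut1, an O-fucosyltransferase, one of 0.66 ± 0.32, with 175, 221 and 211 normalised counts in the untreated SFs and 247, 248 and 523 in treated SFs. Of the ubiquitination and endocytosis genes, 12 of 13 were tested and 0 passed. Mib1, the ubiquitin ligase that lets ligands pull on receptors, had a log2 fold change of 0.22 ± 0.43 (SE), and Numbl, a Numb-like adaptor, one of -0.21 ± 0.28.

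In the nuclear complex 8 of 9 genes were tested and 0 passed. Rbpj, the DNA-binding subunit, had 283, 339 and 400 normalised counts in the untreated SFs and 355, 373 and 773 in treated SFs, a log2 fold change of 0.47 ± 0.32 (SE). Snw1, a co-factor of RBPJ, had one of -0.043 ± 0.24 (SE). Kat2b, a histone acetyltransferase chosen here after its values were seen, had 53, 91 and 58 normalised counts in the untreated SFs and 69, 103 and 462 in treated SFs (log2 fold change 1.17, unadjusted limma p 0.063). Without amisulpride replicate 3 it was 0.36. As for Jag1 and Pofut1, the highest value of Rbpj and Kat2b was that of amisulpride replicate 3, which held the highest value for 13 of the 54 genes (24.1%) and the lowest for 14 (25.9%).

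Of the 13 co-repressor genes tested, 0 passed. Ctbp1, a co-repressor that binds DNA-bound factors, had a log2 fold change of -0.40 ± 0.26 (SE) and Hdac2, a histone deacetylase, one of -0.15 ± 0.27. Of 10 further target genes 5 were tested and 0 passed. Ccnd1, which encodes cyclin D1, had a log2 fold change of 0.44 ± 0.39 (SE). Snai1, a repressor linked to mesenchymal identity that answers to many pathways, had 709, 733 and 556 normalised counts in the untreated SFs and 426, 352 and 302 in treated SFs, without overlap (log2 fold change -0.89, unadjusted limma p 0.00387, adjusted p 0.183). Hes2, Hes3 and Hes5 were at 0 in all libraries and Nrarp, a direct feedback target of Notch, was at 2 or less.

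Leaving out 1 library moved the count of pathway genes past the study thresholds. It was 0 without untreated replicate 1, where 4.57% of all genes were called, and 2 without untreated replicate 3 (Furin and Snai1), where 4.85% were. It was 3 without amisulpride replicate 1 (with Kat2b and Snai1), where 8.11% of all genes were called, and 4 without amisulpride replicate 2 (with Kat2b, Egfl7 and Aph1b), where 5.92% were. The replicate block gave 2, Furin and Kat2b, and called 6.61% of all genes.

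**Figure D3:**
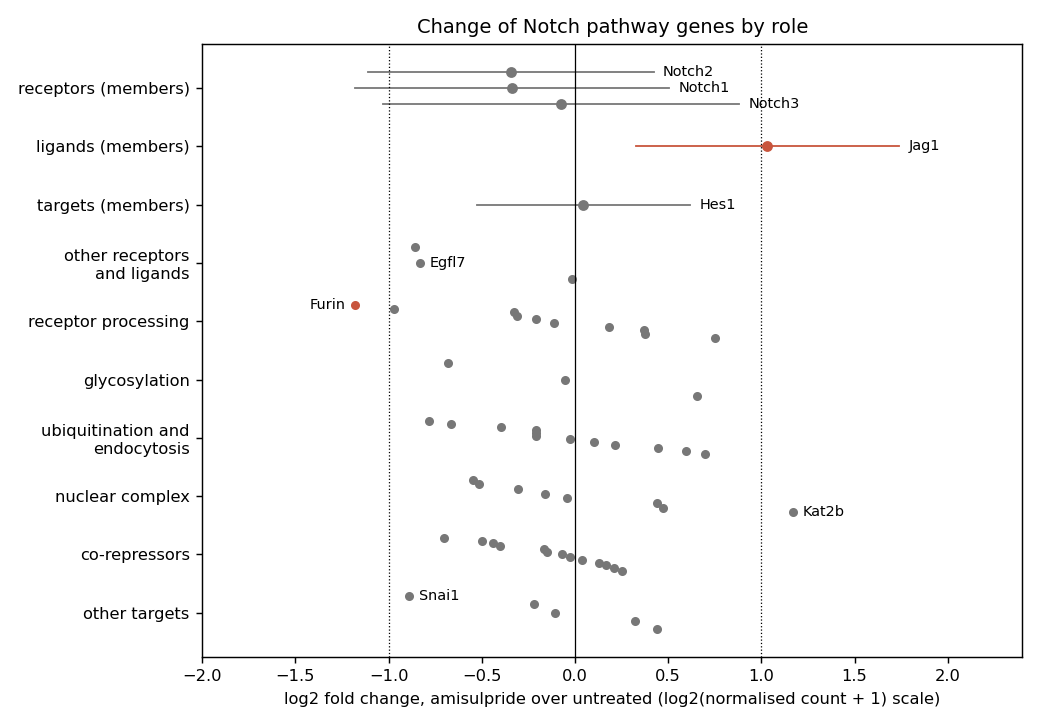
Log2 fold change, amisulpride over untreated (x axis), of the tested Notch genes by role (y axis). Lines on the 5 genes at the top are 95% intervals, red marks genes past the study thresholds, and dotted lines stand at -1 and 1. Jag1 at 1.03 and Furin at -1.18 are red, and Kat2b lies at 1.17 without passing.

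Because Notch genes are strong in vessels, markers of other cells were followed beside them. Fibroblast markers were high, with 8 of 8 tested and a summed value of 43268 to 57828 normalised counts in untreated and 50411 to 89370 in treated SFs. None of the 8 passed the study thresholds, with log2 fold changes from -1.07 for Lum to 0.71 for Col1a2 and Col3a1. Lum passed as lower with the replicate block and without amisulpride replicate 2 (-1.66). Col3a1 passed as higher without amisulpride replicate 1 (1.02). Of the endothelial markers 0 of 8 reached the test, Cdh5, Tie1 and Cldn5 were at 0 in every library, and the sum was 4 to 14 in untreated and 2 to 17 in treated SFs. Of the mural markers 3 of 8 were tested, while Rgs5 was at 2 to 12 normalised counts, Des at 0 to 9, and Kcnj8, Abcc9 and Myh11 were under the floor in every library. The mural sum was 5248 to 9609 in untreated and 1366 to 4738 in treated SFs. Acta2, a smooth muscle actin that activated fibroblasts also make, accounted for most of it.

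Acta2 fell from 6413, 5030 and 9384 to 2714, 1253 and 4586 normalised counts (log2 fold change -1.43, limma adjusted p 0.225, and 0.0142 with the replicate block), a call that was lost without amisulpride replicate 2. Mcam, an adhesion molecule of mural cells, fell from 112, 122 and 184 to 53, 47 and 57 (log2 fold change -1.37, limma adjusted p 0.0764, and 0.0191 with the replicate block). Cspg4, the pericyte proteoglycan NG2, did not pass, with 76, 83 and 31 normalised counts without treatment and 60, 55 and 93 with amisulpride (log2 fold change 0.21). The mural sum, most of which was Acta2, was lower in treated SFs without overlap, as were 8.66% of all genes tested. Notch3 overlapped between the groups. The part of mural cells in the Notch values was not tested.

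Myeloid markers were present in spite of the depletion of CD45+ cells, with 7 of 7 tested and a sum of 2073 to 3636 in untreated and 1838 to 3718 in treated SFs. Csf1r and Cd14 passed the study thresholds as lower in treated SFs (log2 fold changes of -1.01 and -1.74), and the sums overlapped. With the replicate block the limma adjusted p of Cd14 went from 0.144 to 0.012, and Ptprc, which encodes CD45, passed the study thresholds as lower (-1.16, unadjusted limma p 0.036). The log2 fold changes of Lyz2 (-0.14) and Itgam (-0.15) were small, and those of Cd68 (0.31) and Adgre1 (0.83), both macrophage genes, were positive. Adgre1 passed as higher with weights per library (1.11), when untreated replicate 1 (1.17) or amisulpride replicate 3 (1.04) was left out. The call of Csf1r was lost with a pseudocount of 5 and when any library other than amisulpride replicate 3 was left out. The part of myeloid cells in the Jag1 and Furin values was not tested.

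Lining and sublining markers were set beside the Notch genes because Notch signalling is tied to sublining identity. Of the 4 sublining markers, all tested, 0 passed the study thresholds and all had positive log2 fold changes, with sums of 5770 to 12950 normalised counts in untreated and 8868 to 15042 in treated SFs. Cxcl12, a chemokine that made up most of the sum, had a log2 fold change of 0.59 ± 0.39 (SE) and Cd34 one of 0.45 ± 0.39. Thy1 (CD90) had a log2 fold change of 0.21 ± 0.32 (SE) and Sfrp1, a secreted Wnt binder, one of 0.80 ± 0.31 (unadjusted limma p 0.0239), which was 1.09 and past the thresholds without untreated replicate 2. Of the lining markers 3 of 4 were tested and 0 passed, with sums of 840 to 1023 in untreated and 392 to 769 in treated SFs, most of which was Prg4. Prg4, which encodes the joint lubricant lubricin, had 915, 859 and 733 normalised counts in the untreated SFs and 426, 304 and 653 in treated SFs, and its log2 fold change was -0.92 ± 0.29 (SE), limma adjusted p 0.251. Tspan15 had a log2 fold change of 0.44 ± 0.40 (SE) and Hbegf one of -0.65 ± 0.40. Prg4 passed the study thresholds with weights per library (-1.07), without untreated replicate 3 (-1.01) and without amisulpride replicate 3 (-1.21). Hbegf passed as lower without amisulpride replicate 3 (-1.06).

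**Figure D4:**
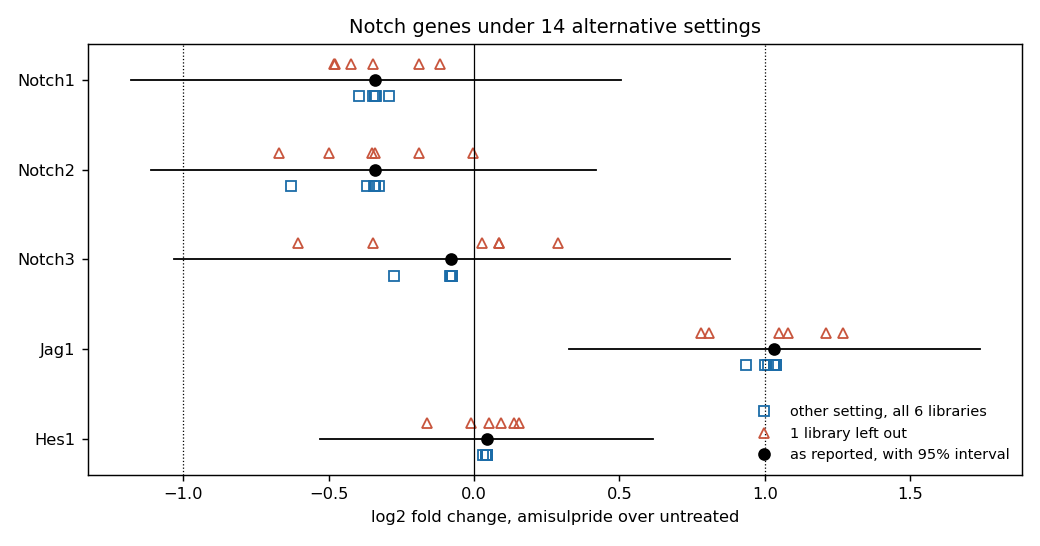
Log2 fold change (x axis) of the 5 tested Notch genes (y axis) as reported (black, with the 95% interval), with 1 library left out (triangles) and under other settings with all libraries (squares). Jag1 stays above 0 throughout, between 0.78 and 1.27, while Notch3 and Hes1 lie on both sides of 0.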

How the data were processed

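RNA of 3 untreated and 3 amisulpride-treated SF cultures was sequenced with a 3′ kit. The authors mapped reads to mm10 with TopHat2 and then Bowtie2, counted them per gene with GenomicRanges, and normalised and tested them with DESeq through metaseqr. Tool versions were not given in the sources used here. The values the authors deposited are a score, here called normalised counts, that is, reads scaled by a factor of each library and rounded. As these are not raw counts, no count model was used. Deposited columns of fold changes and DESeq p-values were not used, nor were 12 further per-library columns on other scales.

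The value of 1 read was estimated for each library from the spacing of low values, and was least certain for untreated replicate 1. The largest error of this estimate was 0.32% when libraries of 49548 genes were simulated. These were built from untreated replicate 2, so the error for untreated replicate 1 was not measured. Steps ranged from 0.834 to 1.79 normalised counts, and the floor of 3 reads was 2.5 to 5.37. Depth is therefore approximate.

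Testing used limma (version 3.58.1, R version 4.3.3) on the log2 of the normalised count plus 1, which understates changes of low genes, with a variance trend, two-sided, and Benjamini-Hochberg adjustment over 12614 genes. The main fit compared the groups without the replicate number. Alternatives changed the pseudocount, filter, scaling and weights, blocked the replicate number or left out 1 library. Whether the replicate numbers paired the samples was not stated in the sources used here. Deviations from group means correlated at 0.229, 0.24 and 0.201 within numbers 1, 2 and 3. Correlations between different numbers were -0.149 to -0.0777. Centring on group means makes a library's covariances with the libraries of the other group cancel out. Positive ones within numbers therefore leave negative ones, on average, between numbers. All 10 Notch genes were named, and of the other lists the genes past the study thresholds or, in a Notch list with none, the 2 with the highest mean. Other genes were named after their values were seen. The genes, lists and rules were chosen with earlier results of these data known. limma was tested on simulated data.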

Additional observations from a re-analysis of the deposited data

How the results depend on the processing

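Jag1 kept its direction in all 14 alternatives and stayed past the study thresholds in 11. It was 0.94 with weights per library, where the count of Notch genes past them was 0, and 0.78 to 1.27 with 1 library left out, where that count was 0 to 1. The replicate block changed no call among the 10 Notch genes. With 1 library left out, Notch3 ranged from -0.61 to 0.29, Hes1 from -0.16 to 0.16, Notch1 from -0.48 to -0.12, Notch2 from -0.67 to -0.0045 and the median of the 5 genes from -0.35 to 0.14. The count of further pathway genes past the study thresholds, 1, was 2 with the replicate block, 2 without a filter and 0 to 4 with 1 library left out.

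Over all genes, the 36 with an adjusted p-value under 0.05 became 263 with the replicate block, 57 with a pseudocount of 5, 57 without a filter, 66 with quantile normalisation and 195 with weights per library. With 1 library left out the limma count was 0 without untreated replicate 2 or 3 (where 1083 and 911 genes were under 0.05 before adjustment), 1 without untreated replicate 1, and 17, 6 and 120 without amisulpride replicates 1, 2 and 3. The 719 genes past the study thresholds became 1313 without a filter and 563 to 1000 with 1 library left out. The causes were not tested. Without a filter, limma also took in Hey1 (-0.48, adjusted p 0.791), Jag2, Hey2 and Heyl, whose adjusted p-values were 0.746 to 1, all at a few reads. Dll1 was at 0 throughout.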
